A study of Mus musculus with 4 samples.

Results

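Cadherins are calcium-dependent adhesion proteins that join neighbouring cells, and the members described here are the protein-coding mouse genes whose symbols consist of Cdh or Pcdh and a number (with Pcdh11x included). The rule found 35 genes among the 55421 genes listed in each count file, 23 cadherins and 12 protocadherins that lie outside the clustered protocadherin loci. Total RNA was sequenced in 4 libraries from cultures of wild-type C57BL/6 mouse prefrontal cortex (PFC), dissociated at postnatal day 0 and kept for 10 days in neurobasal medium with B27, 2 of them with FGF2 at 5 ng/mL and 2 without FGF2. Each group has a B1 and a B2 title, called replicates 1 and 2 here. The study's methods describe its RNA libraries, other than those of human tissue of 2 ages, as technical replicates, so the p-values may measure only technical spread. The question the groups pose is how FGF2, a growth factor often added to neuronal cultures, alters gene expression in cultured PFC cells.

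Classical cadherins bind the same or a related cadherin on the facing membrane through their outermost extracellular repeat, and their cytoplasmic tails bind beta-catenin and p120-catenin, which connect them to actin through alpha-catenin. Type I members such as N-cadherin give strong general adhesion, whereas type II members are expressed in patchworks over cortical areas, layers and synapse types. Non-clustered protocadherins of the delta groups adhere weakly, do not bind beta-catenin, and act in neuron sorting, axon growth and synapse formation. In developing cortex these families are known for holding progenitors together at the ventricular surface and for matching neurons with their partners.

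The libraries held between 9166432 and 10799886 counts on genes. Across all 17144 genes that passed the expression filter, 40.5% were called different by edgeR's quasi-likelihood test (Benjamini-Hochberg adjusted p-value under 0.05), 20.7% higher and 19.9% lower with FGF2. The label of cortical cultures was checked against marker genes, and neuronal, astrocytic and oligodendrocyte lineage markers were all present. The summed level of 10 excitatory neuron (EN) markers was 584 to 602 CPM (a gene's counts relative to its library's scaled total) with FGF2 and 799 to 821 CPM without, and that of 9 inhibitory neuron (IN) markers was 680 to 687 and 1138 to 1177 CPM. In the opposite direction, 7 astrocyte markers summed to 11750 to 11850 CPM with FGF2 and 7049 to 7097 without. Of these 7, 6 were higher and S100b was not called. Gfap alone had 5929 and 5626 CPM with FGF2 and 2774 and 2763 without. The sums of 9 oligodendrocyte lineage markers were 1580 to 1600 CPM with FGF2 and 490 to 504 without. Of 7 progenitor and radial glia markers 3 were higher and 1 lower, of 3 tested microglial markers 2 were higher, and of 6 tested meningeal and mural markers 2 were higher and 2 lower. The part of these cell types in the results below was not tested, and in bulk RNA fewer cells of a type and less RNA per cell cannot be told apart.

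Of the 35 members, 29 had more than 10 counts in at least 1 library and 28 passed the expression filter. Among the 28 tested members, 9 were higher and 11 were lower with FGF2, together 71.4% of those tested, beside the 40.5% over all genes. The median log2 fold change (FGF2 over no FGF2) was -0.06 for the tested members and -0.00082 for all tested genes, while the median size of the change without its sign was 0.46 and 0.28. The 2 groups of libraries did not overlap for 25 of the 28 members, beside 67.0% of all tested genes, with FGF2 higher for 12 members (33.6% of all genes) and lower for 13 (33.4%). With DESeq2 16 members passed the adjusted threshold, 7 higher and 9 lower, where 23.2% of the genes it gave an adjusted p-value were called. The changes ran in both directions within the family.

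**Figure D1:**
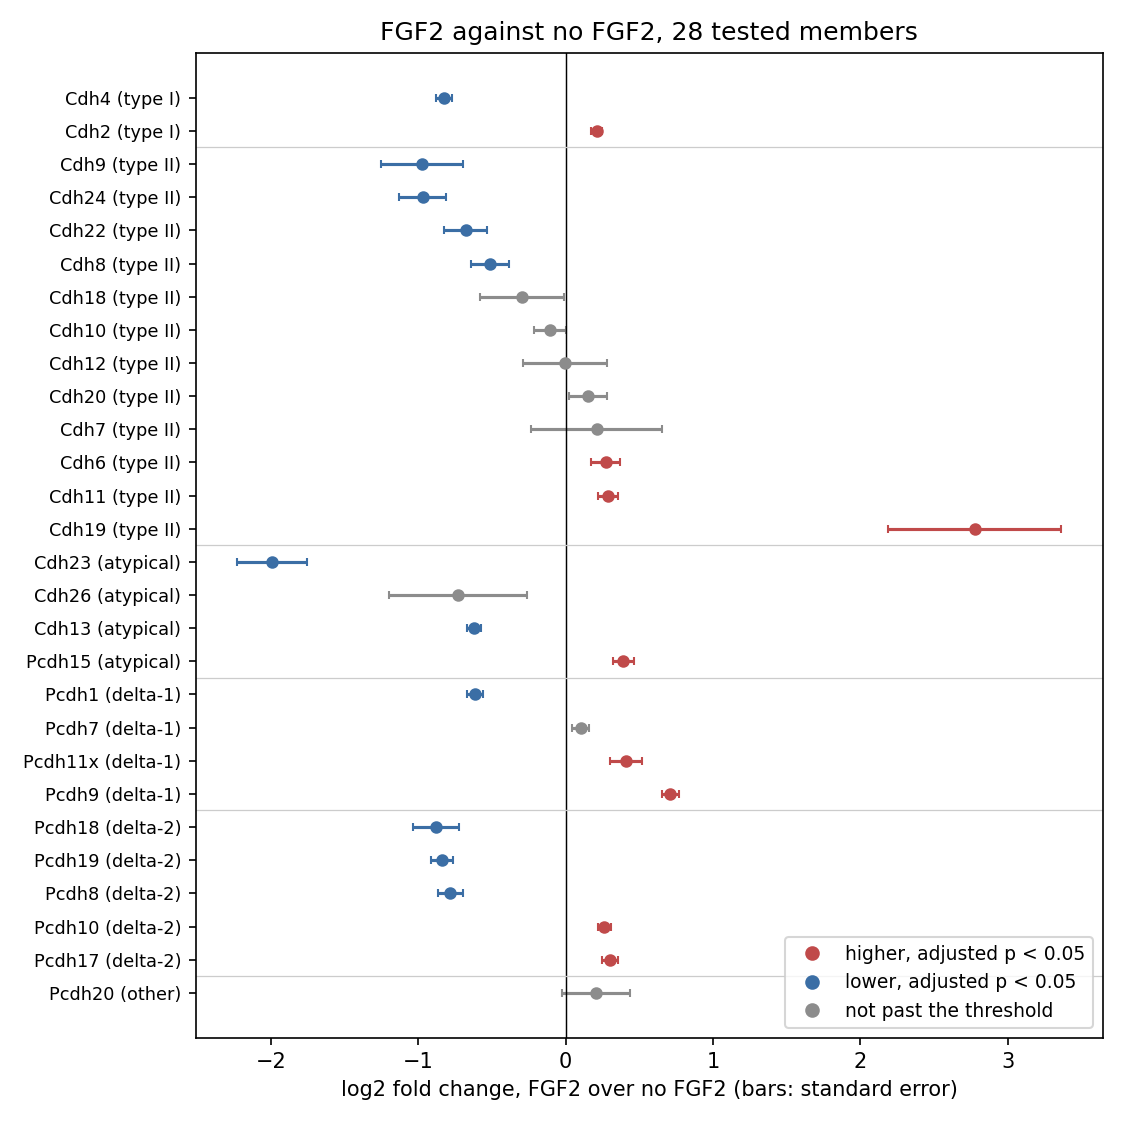
log2 fold change of the 28 tested members, FGF2 over no FGF2, with the standard error as bars, grouped by subfamily and coloured red for higher, blue for lower and grey for not past the threshold. The values run from -1.99 for Cdh23 to 2.78 for Cdh19, and each of the first 5 subfamilies except the type I pair holds at least 3 called genes, with calls in both directions in each of the 5.

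Levels of different genes were compared per kilobase of annotated exon, since a longer transcript yields more reads. On this scale Cdh2, the gene of N-cadherin, was the highest member in every library, at 55.1 and 51.6 CPM per kilobase with FGF2 and 45.0 and 47.2 without. Without FGF2 it was followed by Cdh4 (29.5 ± 0.27, SD, n = 2), then Cdh13 (22.3 ± 0.38) and Pcdh1 (21.7 ± 0.85), of which the last pair overlapped. With FGF2 the genes next to Cdh2 were Pcdh9 (26.7 ± 0.28), Pcdh10 (18.7 ± 0.66) and Cdh4 (16.7 ± 0.025). The 3 lowest tested members per kilobase were Cdh23, Cdh7 and Cdh26 with FGF2 and Cdh19, Cdh7 and Cdh23 without. Without FGF2 the range of Cdh23 overlapped those of Cdh26 and Cdh12, so the order of these 3 was not settled.

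**Figure D2:**
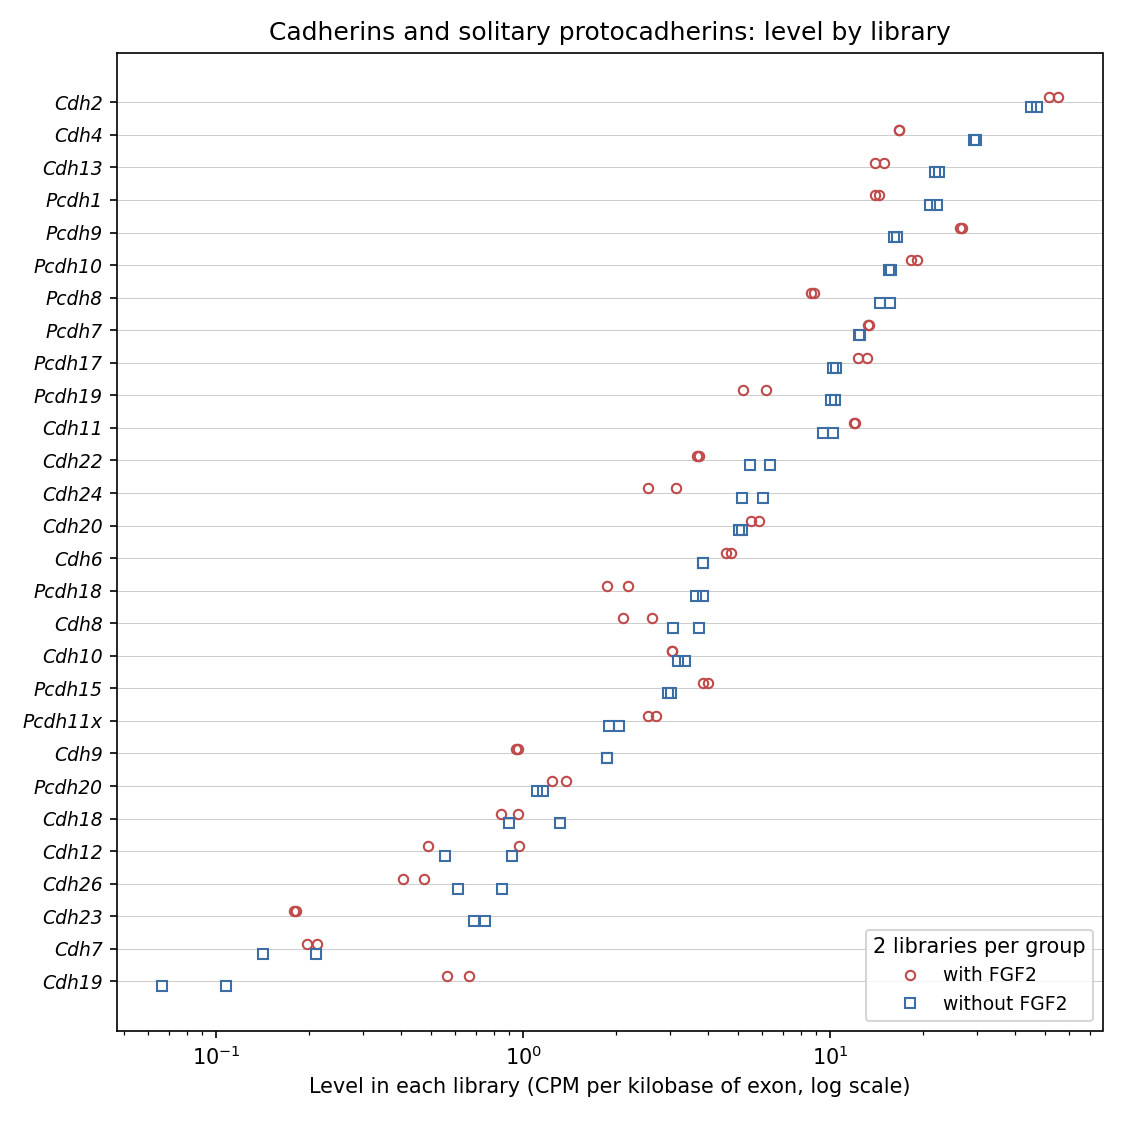
Level of each tested member in each of the 4 libraries, in CPM per kilobase of exon on a log axis, ordered by the mean without FGF2. Circles are libraries with FGF2 and squares those without, and Cdh2 is at the top of the range while Cdh19 and Cdh23 show the widest gaps between the groups.

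Summed over all 35 members, the level was 235 and 231 CPM per kilobase with FGF2 and 251 and 253 without FGF2. Cdh2 made up 23.4% and 22.4% of this sum with FGF2 and 17.9% and 18.6% without. Cdh4 made up 7.10% and 7.23% with FGF2 and 11.8% and 11.6% without, and Pcdh9 made up 11.3% and 11.6% against 6.40% and 6.53%. By subfamily, delta-1 protocadherins made up 24.3% and 24.5% with FGF2 and 21.0% and 20.5% without, and atypical cadherins 8.37% and 7.99% against 10.6% and 10.7%. Type I cadherins held 29.6% to 30.5% with FGF2 and 29.9% to 30.3% without, while Cdh2 and Cdh4 within it moved in opposite directions.

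**Figure D3:**
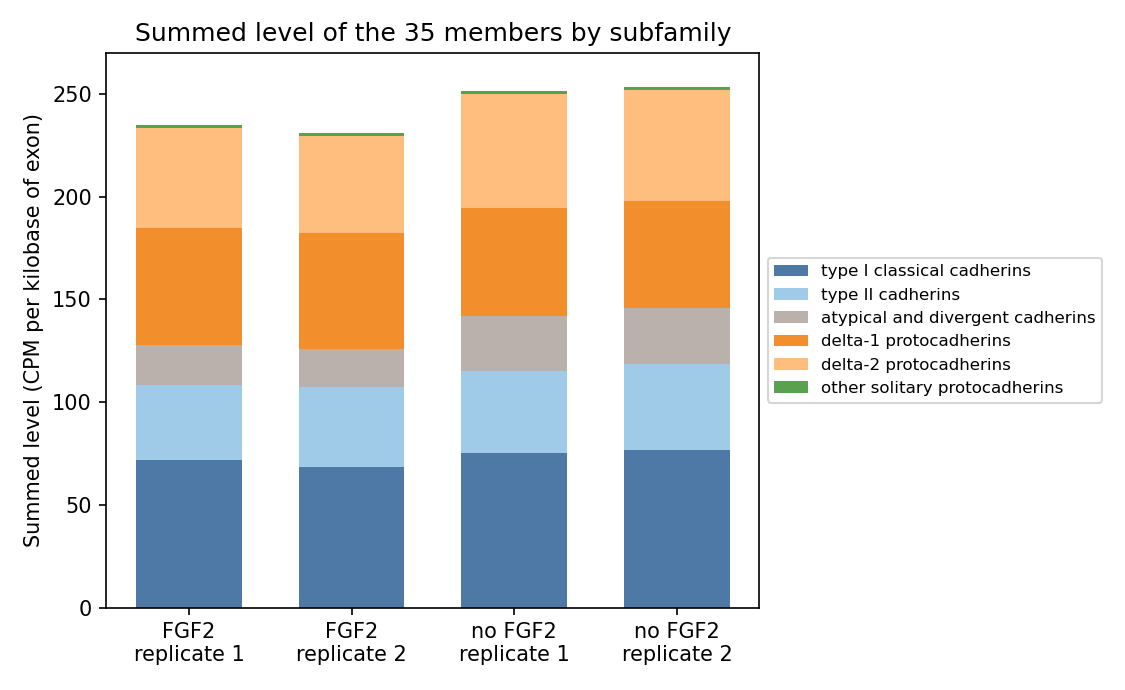
Summed level of the 35 members in each library, in CPM per kilobase of exon, stacked by subfamily. The 4 bars reach 235, 231, 251 and 253, and the type I block fills about the same share of each.

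Among the 5 type I classical cadherins, Cdh2 rose and Cdh4 fell. Cdh2 lies on chromosome 18 of mm10 from 16588877 to 16809246 on the minus strand. It had 444 and 417 CPM with FGF2 and 363 and 381 CPM without FGF2. Both libraries with FGF2 were above both without, by 1.16-fold (log2 fold change 0.21, standard error 0.04, edgeR adjusted p = 7.5e-07). Cdh4 encodes R-cadherin, a close relative of N-cadherin that was first described in retina, and lies on chromosome 2 from 179442431 to 179899373. It had 121 and 121 CPM with FGF2 and 216 and 213 CPM without FGF2, so the level without FGF2 was 1.77-fold higher (log2 fold change -0.82, standard error 0.05, edgeR adjusted p = 6.6e-51). The pair of Cdh4 libraries within each group differed far less than the groups did.

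The remaining type I members were at or near the limit of detection. Cdh1, the gene of epithelial E-cadherin, was at 0 and 1 counts in the FGF2 libraries and at 2 and 7 in the others, and Cdh3, the gene of P-cadherin, had 0 and 0 against 3 and 0. All 6 epithelial markers examined, Epcam and Krt8 among them, had at most 10 counts in every library, and 3 of the 6 were at 0 throughout. Cdh15, the gene of M-cadherin in muscle precursors and cerebellar granule cells, drew 1 and 2 counts under FGF2, compared with 12 and 5 in its absence. It lay just inside the rule of more than 10 counts, with Cdh1 just outside it, and did not pass the expression filter. The ratio of its pooled counts was 5.02 in favour of the cultures without FGF2, with an exact 95% counting interval of 1.45 to 26.8. The 5 skeletal muscle markers had at most 10 counts in every library, and Myod1, Myf5 and Ckm were at 0.

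The type II cadherins, a group of 13 genes, split into 3 that rose, 4 that fell and 5 tested genes that did not pass the threshold. Over all tested genes 20.7% were called higher and 19.9% lower. With DESeq2 4 of the type II genes passed, beside 23.2% of the genes it gave an adjusted p-value. Only Cdh5, the gene of the endothelial VE-cadherin, was not measured, at 3 and 0 counts under FGF2 and 3 in each of the other libraries. Of 7 endothelial markers, Tie1 and Cldn5 were at 0 in every library and 4, these included, had at most 10 counts in every library. The other 3 were measured, Pecam1 at 17 to 29 counts per library, Kdr at 12 and 20 counts under FGF2 and 24 and 46 in its absence, and Flt1 at 52 and 36 against 6 and 9. By edgeR Flt1 was higher (log2 fold change 2.71) and Kdr lower (log2 fold change -0.95) with FGF2, and Kdr was not called with DESeq2.

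Cdh19 rose most of all members. This type II cadherin is known from Schwann cell precursors and other glia of the neural crest, and the gene lies on chromosome 1 from 110888326 to 110977584. It had 22 and 28 counts with FGF2 and 3 and 5 counts without FGF2, which is 2.42 and 2.84 CPM against 0.285 and 0.461 CPM. The groups were far apart relative to the spread within them, but the level was low in all 4 libraries. The fitted log2 fold change was 2.78 (standard error 0.59, edgeR adjusted p = 1.3e-05), and the ratio of pooled counts was 7.05 with an exact 95% counting interval of 3.32 to 17.2. The oligodendrocyte lineage markers moved in the same direction, with 8 of 8 tested markers higher and 1, Mog, at no more than 4 counts. Sox10, which oligodendrocyte lineage and Schwann cells both express, had 1228 and 1303 counts under FGF2 but 254 and 284 in the other libraries. Egr2, a regulator of Schwann cell myelination, went from 31 and 35 counts to 256 and 269. The part of either lineage in the rise of Cdh19 was not tested.

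Cdh11 and Cdh6 rose by a small factor. Cdh11, first found in osteoblasts and common in mesenchyme and in some neurons and glia, had 106 and 107 CPM with FGF2 and 90.7 and 84.3 CPM without. Its groups did not overlap, as in 67.0% of all tested genes. The level was 1.22-fold higher with FGF2 (log2 fold change 0.29, standard error 0.07, edgeR adjusted p = 8.7e-05). A pseudogene that does not overlap Cdh11, Gm3365, shares a stretch of 990 bases with 95.3% identity to a Cdh11 transcript. It drew 52 to 56 counts per library, so its reads and those of Cdh11 may be split imperfectly. Cdh6, which marks subsets of cortical neurons and renal epithelium, had 41.2 and 42.7 CPM with FGF2 and 34.7 and 34.8 CPM without (log2 fold change 0.27, standard error 0.10, edgeR adjusted p = 0.020). That call was the least firm of the 9 rises, since the adjusted p-value was 0.21 with DESeq2, 0.10 without replicate 2 with FGF2, and 0.11 without either replicate lacking FGF2.

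The 4 type II cadherins that fell were Cdh8, Cdh9, Cdh22 and Cdh24. Cdh24 lies on chromosome 14 from 54631231 to 54641364 and had 8.90 and 11 CPM with FGF2 and 17.9 and 21.1 CPM without, a log2 fold change of -0.97 (standard error 0.16, edgeR adjusted p = 1.0e-08). Cdh9, which has a role in the synapses of hippocampal mossy fibres, had 3.41 and 3.35 CPM with FGF2 and 6.64 and 6.63 CPM without, with 31 to 72 counts per library. The 2 groups of Cdh9 differed by 1.96-fold (log2 fold change -0.97, standard error 0.28, edgeR adjusted p = 0.0017), although the adjusted p-value was 0.076 with DESeq2. At counts this low the closeness of its replicates is no measure of precision. Cdh22, found in neurons and in the pituitary gland, had 13.6 and 13.8 CPM with FGF2 and 20.3 and 23.6 CPM without (log2 fold change -0.68, standard error 0.14, edgeR adjusted p = 1.4e-05). Cdh8, which marks areas and layers of developing cortex, had 16.4 and 20.4 CPM with FGF2 and 23.8 and 28.8 CPM without. Its groups were closer to each other than those of the other 3, and its log2 fold change of -0.52 (standard error 0.13, edgeR adjusted p = 3.0e-04) became -0.37 (adjusted p = 0.077) without replicate 2 of the cultures lacking FGF2. With DESeq2 the adjusted p-value of Cdh8 was 0.056.

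All 9 IN markers and 5 of 10 EN markers were lower with FGF2 by the same test and none was higher. Whether these 4 cadherins follow the neuronal markers was not tested.

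The type II genes that did not pass the threshold were Cdh7, Cdh10, Cdh12, Cdh18 and Cdh20. Cdh10 and Cdh20 were well measured, with 279 to 357 and 201 to 231 counts per library. Cdh10 had 30.7 and 30.6 CPM with FGF2 and 33.9 and 32.1 without, and Cdh20 had 22.1 and 23.4 against 20.2 and 20.7 CPM. Their log2 fold changes were -0.11 (standard error 0.11) and 0.15 (standard error 0.13). Cdh7, Cdh12 and Cdh18 had only 15 to 65 counts per library, and their groups overlapped. Cdh12 also shares 198 exonic bases with Gm49685 on the same strand. The direction of all 3 rested on single libraries, since the log2 fold change ran from -0.05 to 0.52 for Cdh7, from -0.59 to 0.39 for Cdh12 and from -0.55 to 0.01 for Cdh18 when each library was left out in turn.

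Among the 6 atypical and divergent cadherins, Cdh23 and Cdh13 fell, Pcdh15 rose and Cdh26 did not pass the threshold. Over all tested genes 40.5% were called. Cdh16 and Cdh17, cadherins of kidney and intestine, were not measured. Cdh16 had 0 counts in all 4 libraries, which allows up to 3 counts or 0.278 to 0.327 CPM by counting error alone, and Cdh17 had at most 4 counts.

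Cdh23 and Pcdh15 encode the 2 proteins that join to form the tip link of inner ear hair cells, and they moved in opposite directions here. Cdh23 lies on chromosome 10 from 60302748 to 60696490 and had 3.08 and 3.04 CPM with FGF2 and 11.7 and 12.7 CPM without FGF2. This was the deepest fall among the 28 tested members, to a level 3.98-fold below that without FGF2 (log2 fold change -1.99, standard error 0.24, edgeR adjusted p = 1.1e-15). It rested on 28 and 30 counts with FGF2 and 123 and 138 without. Pcdh15, on the same chromosome from 73099342 to 74649737, is also expressed by oligodendrocyte precursors. It had 95 and 91.5 CPM with FGF2 and 70.2 and 71.8 CPM without, a rise of 1.31-fold (log2 fold change 0.39, standard error 0.07, edgeR adjusted p = 4.4e-07). Pdgfra and Cspg4, which mark oligodendrocyte precursors, had log2 fold changes of 0.74 and 0.56, and their part in the rise of Pcdh15 was not tested.

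Cdh13 encodes T-cadherin, which lacks a cytoplasmic tail and is held in the membrane by a lipid anchor. The gene lies on chromosome 8 from 118283733 to 119324921. It had 167 and 157 CPM with FGF2 and 247 and 253 CPM without FGF2, so it fell by 0.62 on the log2 scale (standard error 0.05, edgeR adjusted p = 2.9e-35). Both libraries with FGF2 lay well below both others, and with each library left out the value stayed between -0.67 and -0.58. Cdh26, a cadherin of epithelia, had 1.43 and 1.22 CPM with FGF2 and 2.56 and 1.84 CPM without, from 12 to 27 counts per library (log2 fold change -0.73, standard error 0.47, edgeR adjusted p = 0.22).

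The delta-1 protocadherins carry a conserved motif in the tail that binds a protein phosphatase. Among these 4 genes Pcdh9 and Pcdh11x rose, Pcdh1 fell and Pcdh7 did not pass the threshold, where 40.5% of all tested genes were called. Pcdh9, on chromosome 14 from 93013410 to 93890679, had 180 and 182 CPM with FGF2 and 109 and 112 CPM without. This rise, 1.64-fold, was the largest among the 28 tested members after that of Cdh19 (log2 fold change 0.71, standard error 0.06, edgeR adjusted p = 2.4e-34). Pcdh11x, an X-linked gene, had 37.7 and 35.5 CPM with FGF2 and 28.6 and 26.5 CPM without (log2 fold change 0.41, standard error 0.11, edgeR adjusted p = 8.5e-04, and 0.058 with DESeq2). Pcdh1, a protocadherin of airway epithelium as well as brain, lies on chromosome 18 from 38185914 to 38212053. It had 126 and 123 CPM with FGF2 and 196 and 186 CPM without, a log2 fold change of -0.62 (standard error 0.05, edgeR adjusted p = 1.0e-27). Pcdh7 had 142 and 141 CPM with FGF2 and 132 and 132 CPM without, so its groups did not overlap although its log2 fold change of 0.10 (standard error 0.06, edgeR adjusted p = 0.16) did not pass. An antisense transcript, 4932441J04Rik, overlaps 2235 exonic bases of Pcdh7 and drew 14 to 42 counts per library.

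The delta-2 protocadherins have a shorter extracellular part, and several of them bind the WAVE complex, which drives branched actin. All 5 genes were called, beside 40.5% of all tested genes. Pcdh10 and Pcdh17 were higher and Pcdh8, Pcdh18 and Pcdh19 lower with FGF2.

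Pcdh10, also called OL-protocadherin and known for the growth of striatal and thalamocortical axons, was the most abundant delta-2 gene and had 305 and 290 CPM with FGF2 and 250 and 246 CPM without. Its log2 fold change was 0.26 (standard error 0.04, edgeR adjusted p = 2.8e-08). Pcdh17, which clusters at synapses of basal ganglia circuits, had 171 and 160 CPM with FGF2 and 133 and 136 CPM without (log2 fold change 0.30, standard error 0.06, edgeR adjusted p = 5.6e-07). In both genes the lower library with FGF2 was still above the higher library without, as in 33.6% of all tested genes.

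The 3 delta-2 genes that fell did so by more than these 2 rose. Pcdh19, the X-linked gene in which mutations cause an epilepsy that affects mostly females, lies on chromosome X from 133582860 to 133688987. It had 54.4 and 64.6 CPM with FGF2 and 105 and 108 CPM without, a log2 fold change of -0.84 (standard error 0.07, edgeR adjusted p = 5.2e-29). Pcdh8, or arcadlin, which neuronal activity induces and which takes part in the internalization of N-cadherin, had 40.1 and 39.3 CPM with FGF2 and 70.8 and 65.9 CPM without (log2 fold change -0.78, standard error 0.09, edgeR adjusted p = 5.9e-18). Pcdh18 had 11.8 and 10.0 CPM with FGF2 and 20.6 and 19.5 CPM without, with 99 to 217 counts per library (log2 fold change -0.88, standard error 0.16, edgeR adjusted p = 1.1e-07). The groups did not overlap for any of the 3, as was the case for 67.0% of all tested genes. Gm9748, which overlaps Pcdh8 on the opposite strand, drew at most 2 counts in any library.

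Delta protocadherins that moved in opposite directions lie on the same chromosomes, Pcdh10 and Pcdh18 on chromosome 3 and Pcdh9 and Pcdh8 on chromosome 14. The 120 bases before the start site are given here for these 4 genes and for Pcdh19, so that the promoters of genes that rose and fell can be compared. They come from the RefSeq promoter table (GRCm38.p6, the same assembly as mm10), run 5′ to 3′ on the strand of the gene, and capitals mark a CCAAT box, a GC box (GGGCGG) and a TATA box (the letters TATAAA) on either strand.
Pcdh9 (rose), chr14:93890680-93890799, minus strand: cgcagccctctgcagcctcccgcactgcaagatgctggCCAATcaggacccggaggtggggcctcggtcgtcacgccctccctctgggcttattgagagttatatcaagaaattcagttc
Pcdh10 (rose), chr3:45378278-45378397, plus strand: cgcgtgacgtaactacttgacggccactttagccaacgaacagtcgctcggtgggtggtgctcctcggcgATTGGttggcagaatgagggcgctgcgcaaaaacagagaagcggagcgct
Pcdh8 (fell), chr14:79771313-79771432, minus strand: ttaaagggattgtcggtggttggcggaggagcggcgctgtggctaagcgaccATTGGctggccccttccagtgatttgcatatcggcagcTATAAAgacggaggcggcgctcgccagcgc
Pcdh19 (fell), chrX:133688994-133689113, minus strand: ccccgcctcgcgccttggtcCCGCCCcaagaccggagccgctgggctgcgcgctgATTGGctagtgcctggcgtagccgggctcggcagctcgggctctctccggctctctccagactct
Pcdh18 (fell), chr3:49757317-49757436, minus strand: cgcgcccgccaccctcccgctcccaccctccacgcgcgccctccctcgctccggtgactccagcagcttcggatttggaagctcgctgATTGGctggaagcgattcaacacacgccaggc

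Each of these 5 stretches holds the letters CCAAT once on 1 of the strands, beginning 32 to 82 bases before the start site. Pcdh8 also holds TATAAA 30 bases before its start, and Pcdh19 holds GGGCGG 100 bases before its start. The table matched 22 of the 35 members, among them 13 of the 20 called genes, through 25 windows. A member was counted where any of its windows held the letters, whereas the shares beside it are per window. The RefSeq start lies inside the gene span used here for some members. The Pcdh15 window begins at 73821617 and the gene at 73099342, and the windows of Cdh7, Cdh10, Cdh12, Cdh15 and Cdh18 also lie wholly inside. Cdh7, Cdh10, Cdh12 and Cdh18 are among the 8 that did not pass the threshold. The values of those 8 thus rest in part on windows from within genes. These windows were counted with the rest. In the 250 bases before the start, CCAAT was present for 4 of 5 members that rose, 5 of 8 that fell and 5 of 8 that did not pass the threshold, beside 33.8% of all 32851 promoter windows. GGGCGG was present for 3 of the 5, 5 of the 8 and 0 of the 8, beside 32.7% of all windows. CACCTG, the E-box read by Snail and ZEB repressors of E-cadherin, was present for 2 of 22 members and 17.2% of all windows. TATAAA was present for 2 of the 22 members, and TGACGTCA and TGANTCA for 0 of the 22, beside 12.4%, 1.55% and 6.75% of all windows. The median G and C content of these 250 bases was 63.2% for the 5 that rose, 66.2% for the 8 that fell and 52.4% for all windows. Over the 8 that did not pass the threshold it ran from 36.8% for Cdh10 to 61.6% for a window of Cdh7. Whether the GGGCGG matches follow this content was not tested. The CCAAT letters were added to the search after the sequences had been seen, and the 5 genes printed here are among the members counted. A match of letters is a description and no binding site.

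Of the other solitary protocadherins, Pcdh12, which is known from endothelium, was not measured and had 1 count in 1 library. Pcdh20 had 7.58 and 6.79 CPM with FGF2 and 6.36 and 6.08 CPM without, from 66 to 69 counts per library (log2 fold change 0.21, standard error 0.23, edgeR adjusted p = 0.52).

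The genes that work with cadherins were examined from a list of 42 genes in 5 groups, of which 41 were tested. By the edgeR test 16 were higher and 20 were lower with FGF2, beside 20.7% and 19.9% of all tested genes. The count of higher genes fell to 8 with DESeq2 and to 9 without replicate 1 of the cultures lacking FGF2. Among 9 catenins and p120 relatives, 2 rose and 4 fell. Ctnnb1, the gene of beta-catenin, had 676 and 685 CPM with FGF2 and 582 and 573 without (log2 fold change 0.24, standard error 0.04, edgeR adjusted p = 4.1e-10). The alpha-catenins, which pass the force on to actin, differed among themselves. Ctnna1, the form of most epithelia and glia, had 224 and 238 CPM with FGF2 and 139 and 135 without (log2 fold change 0.76, edgeR adjusted p = 4.9e-47), whereas Ctnna2, the neuronal form, had 128 and 121 against 136 and 131 CPM (log2 fold change -0.10, edgeR adjusted p = 0.16). Ctnna3 was low, with 1.65 and 2.84 CPM with FGF2 and 5.98 and 7.0 without (log2 fold change -1.52, edgeR adjusted p = 4.7e-06). Ctnnd1, the gene of p120-catenin, had 16.4 and 20.3 CPM with FGF2 and 19.4 and 18.7 without, and its groups overlapped.

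Among the 7 genes for cleavage of cadherins, 6 were higher and none lower by edgeR, beside 20.7% and 19.9% of all tested genes. Their log2 fold changes ran from -0.02 to 0.48. Only 1 of them, Psenen, named after its values were seen, passed with DESeq2. Of the nectins and afadin, an adhesion system that assembles beside cadherins, 2 were higher and 2 lower by edgeR. Neither of the higher genes, Nectin2 and Nectin3, which were named after their values were seen, passed with DESeq2 (adjusted p = 0.11 and 0.24). Nectin1 fell most of these, with 94.1 and 88.6 CPM with FGF2 and 181 and 192 without (log2 fold change -1.03, edgeR adjusted p = 1.8e-66). Of 9 WAVE complex genes 5 rose and 3 fell, and Wasf2 rose from 53.5 and 49.2 CPM to 77.7 and 71.9 CPM (log2 fold change 0.54, edgeR adjusted p = 2.4e-10).

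The 12 other members of the cadherin superfamily, made up of the Celsr, Fat, Dachsous and calsyntenin genes, were called mostly in 1 direction. Fat1, named after its values were seen, was higher (log2 fold change 0.16) and the other 11 genes were lower with FGF2 by edgeR, beside 19.9% of all tested genes. With DESeq2 10 of the 12 passed, without Fat2 and without Celsr1, which was named after its values were seen (adjusted p = 0.046 with edgeR and 0.25 with DESeq2). Dchs2, a large cadherin of planar polarity, had 30.6 and 27.3 CPM with FGF2 and 60.6 and 62.1 without (log2 fold change -1.09, edgeR adjusted p = 3.1e-28). Celsr3, which guides axon tracts, had 124 and 137 against 220 and 207 CPM (log2 fold change -0.71, edgeR adjusted p = 8.2e-39), and Clstn2, a synaptic calsyntenin, had 72.2 and 74.0 against 115 and 120 CPM (log2 fold change -0.68, edgeR adjusted p = 3.5e-22). Fat2 rested on 3 and 6 counts with FGF2 and 26 and 19 without (log2 fold change -2.12, edgeR adjusted p = 0.0014), and it did not pass with DESeq2 (adjusted p = 0.063) or without replicate 1 of the cultures lacking FGF2 (adjusted p = 0.088).

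**Figure D4:**
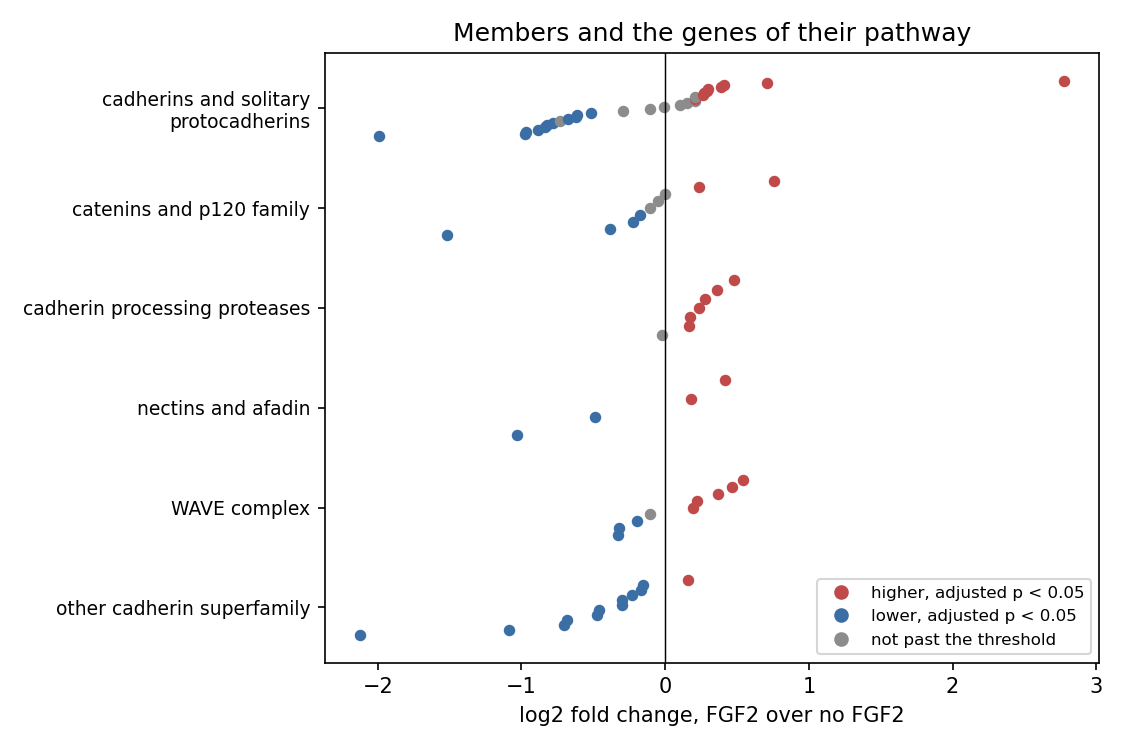
log2 fold change, FGF2 over no FGF2, of the 28 tested members and of the 41 tested partner genes by group, 1 point per gene in the same 3 colours; vertical offsets only separate points. The members spread from -1.99 to 2.78 on both sides of 0, whereas 11 of the 12 other superfamily genes lie below 0.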

How the data were processed

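The authors mapped clean reads of total RNA libraries to mm10 with HISAT2 2.1.0, used Samtools to keep reads of mapping quality 20 or more, and ran HTSeq 0.11.2 to count them by gene, versions being those of the submitters' processing notes. The deposited values are raw counts without normalization. The annotation release and strand setting are not given in the sources used here. Identifiers were matched to GENCODE M21 (55240 of 55421), which gave symbols, coordinates and exon lengths. Genes whose exons another gene covers by at least 98% had a count in 4 of 693 cases on the same strand and 164 of 501 on the opposite strand. The 5 tally lines (43.2% to 45.9% of read pairs in no feature and 1.47% to 1.76% ambiguous) were left out.

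Counts were tested with edgeR 4.0.16 in R 4.3.3 (quasi-likelihood, TMM, its expression filter, robust, Benjamini-Hochberg over 17144 genes). The standard error is the log2 fold change divided by the root of the F statistic. CPM are TMM-scaled, with the SD over 2 libraries. Replicates differed by more than sampling noise (chi-square per degree of freedom 2.28 with FGF2 and 1.76 without), so each library counts once. Transcripts were compared with BLAST 2.17.0. Intervals and limits of detection cover counting error only. The fit was tested on simulated data. Alternatives were RLE and total count scaling, 2 other filters, DESeq2 1.42.0, limma-voom (limma 3.58.1), a threshold of 0.01, a replicate block and each library left out. All members are named. Partner genes are named where called with an absolute log2 fold change of at least 0.5, plus Ctnnb1, Ctnna2 and Ctnnd1. Psenen, Nectin2, Nectin3, Fat1 and Celsr1 are named outside this rule. The members and lists were chosen with earlier results of these data known.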

Additional observations from a re-analysis of the deposited data

How the results depend on the processing

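With DESeq2 4007 of all genes passed the adjusted threshold in place of 6949, and 8 partner genes were higher in place of 16. Here named genes means the tested members and the partner genes named by rule. Of those that edgeR called, Cdh6, Cdh8, Cdh9, Pcdh11x and Fat2 were not called with DESeq2. Nectin2, Nectin3, Celsr1 and Kdr, outside this set, were called by edgeR but not with DESeq2 either. The cause was not tested for any of them. Over the fits that each left out 1 library, 5213 to 6199 of all genes were called, with 8 to 9 members higher, 10 to 11 members lower, 9 to 13 partner genes higher and 18 to 19 partner genes lower. The lowest partner count, 9, came without replicate 1 of the cultures lacking FGF2. Of 39 named genes, 34 kept both direction and call in all fits on the 4 libraries, and 30 also in the fits on 3. Cdh19 and Fat2 fell out of the fit that kept genes with 10 or more counts throughout. With a library left out the log2 fold change changed sign for Cdh7 (-0.047 to 0.522, negative without replicate 1 lacking FGF2), Cdh12 (-0.592 to 0.393, positive without replicate 1 of either group), Cdh18 (-0.546 to 0.0058, positive without replicate 2 lacking FGF2) and Ctnnd1 (-0.219 to 0.088, positive without replicate 1 with FGF2), none of which had passed the threshold. The replicate numbers of the titles did not pair the libraries, since the same-numbered libraries deviated from their group means with a correlation of 0.01. With the number as a replicate block 6814 of all genes, 9 members higher, 11 members lower, 16 partner genes higher and 19 partner genes lower were called, and it changed no call of a named gene. Low counts limit Cdh7, Cdh12, Cdh15, Cdh18, Cdh19 and Cdh26 most.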

Other observations

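Most members share a chromosome with another member, and their changes are given here by chromosome. Gaps between neighbouring members in mm10 ran from 0.046 to 25.1 Mb. On chromosome 8, which holds 8 of the 35 members, Cdh8 fell and Cdh11, at a gap of 3.22 Mb, rose, while Cdh5, Cdh16, Cdh3 and Cdh1, the next 4 members along the chromosome, were not measured. Farther along, Cdh13 fell by 0.62 on the log2 scale and Cdh15 was measured but not tested. On chromosome 2 the changes of all 3 members were negative, -0.68 for Cdh22, -0.73 for Cdh26, which did not pass the threshold, and -0.82 for Cdh4, which lies 0.955 Mb from Cdh26. On chromosome 15 the 5 members Cdh6, Cdh9, Cdh10, Cdh12 and Cdh18 follow each other with gaps of 0.959 to 3.56 Mb. In this row Cdh6 rose by 0.27 and Cdh9 fell by 0.97 on the log2 scale, and the other 3 did not pass the threshold. Chromosome 3 holds Pcdh10, which rose, and Pcdh18, which fell, 4.31 Mb apart. On chromosome 14 Cdh24 fell, and Pcdh8, 25.1 Mb from it, fell too. Farther along, Pcdh17 rose, Pcdh20 did not pass the threshold and Pcdh9 rose. The gaps between neighbours from Pcdh8 onward were 3.93 to 4.67 Mb. On chromosome 1 Cdh7 and Cdh19 lie 0.748 Mb apart, and of these and Cdh20 only Cdh19 passed the threshold. The X-linked pair moved apart as well, with Pcdh11x at 0.41 and Pcdh19 at -0.84. On chromosome 18 Cdh2 rose and Pcdh1 fell, 21.4 Mb apart, and Pcdh12 was not measured. On chromosome 10 Cdh23 fell and Pcdh15 rose, 12.4 Mb apart. The differences between neighbours were not tested.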
